A study of Homo sapiens with 72 samples.

Results

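NONHSAG048398.2 is a long non-coding RNA (lncRNA) gene of the NONCODE catalogue, 1 of the 96411 lncRNA genes listed. It was chosen because, among the 31 genes called higher after 24 h of TGF-β than at 0 h in each of 3 breast cell lines, it had the largest mean log2 change. Its levels with TGF-β are therefore described below without a test. It was set beside the genes whose identifiers run from NONHSAG048390 to NONHSAG048406, with any version after the point. Apart from the gene itself, 6 such genes are listed: NONHSAG048390.2, NONHSAG048393.3, NONHSAG048397.2, NONHSAG048399.2, NONHSAG048404.2 and NONHSAG048405.3. They were chosen by number alone, so each of them could be tested. Whether genes of close number also lie close in the genome was not examined, since positions and names for these identifiers were not used here, and no sequence is shown for the same reason.

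TGF-β is a secreted ligand that brings together receptor kinases of type II and type I at the cell surface. The activated type I receptor phosphorylates SMAD proteins, which then enter the nucleus and change transcription, and mammary epithelial cells are a common model for this response. SB431542 (SB) is a small molecule that blocks the type I receptor kinase, so it also removes signalling by ligand that cells make themselves. LncRNAs are transcripts without a known protein product, and some of them act in the control of other genes. No role is stated here for any gene of the set.

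Total RNA was sequenced from MCF10A-M1 (M1), which is non-malignant, from MCF10A-M2 (M2), derived from it by transformation with HA-Ras, and from the triple-negative cancer line MDA-MB-231. All cells were first held overnight without serum. They were then given TGF-β at 5 ng/mL or SB at 10 µM, and each line, agent and time of 0, 2, 8 or 24 h was a group of 3 libraries, 24 groups and 72 libraries in all. The 0 h TGF-β groups were not stimulated, and the earliest SB groups are 0 h in one label and 0.5 h in another. Ligand buffer and DMSO are named as vehicles, and no group of vehicle alone at 2, 8 or 24 h is listed, so the agents were compared with each other and with the earliest groups. Each genotype is 1 line. The identity of the lines was not checked, since the listed genes include no marker that the sources name.

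Levels are in TPM, a length-corrected share scaled so that the listed lncRNA genes make up the whole of each library. Depth per library is unknown, and 8458 to 16748 genes reached 0.5 TPM. In M2 this number fell from a mean of 13571 at 0 h to 9080 at 24 h of TGF-β, and from 13123 to 9310 over the SB course. Over 24 h the median log2 change among tested genes in M2 was -0.74 with TGF-β and -0.63 with SB. It was -0.25 and 0.01 in M1, and -0.25 and -0.05 in the cancer line. With each library rescaled by the median of ratios, these medians lay between -0.13 and 0.01. Changes are on the log2(TPM + 0.5) scale. A gene was called where limma gave an adjusted p under 0.05 over all genes tested in a fit.

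The gene rose in every line given TGF-β, and the course over time differed between the lines in the descriptive values. In M1 the 3 libraries read 93.7, 112 and 113 TPM at 0 h, 491, 478 and 499 TPM at 2 h, 535, 553 and 590 TPM at 8 h, and 420, 442 and 482 TPM at 24 h. The level was thus near its highest by 2 h and stayed there, at 4.21 times the 0 h mean after 24 h. In M2 the libraries read 13.4, 8.95 and 15.5 TPM at 0 h, 266, 199 and 194 TPM at 2 h, 336, 528 and 529 TPM at 8 h, and 2063, 1544 and 1878 TPM at 24 h. M2 started lowest and ended highest, with a mean at 24 h of 1828 ± 263 TPM (SD, n = 3), 145 times that at 0 h. In MDA-MB-231 the libraries read 40.3, 53.6 and 40.4 TPM at 0 h, 342, 251 and 229 TPM at 2 h, 220, 206 and 237 TPM at 8 h, and 202, 131 and 174 TPM at 24 h. There the highest mean, 274 ± 60.1 TPM (SD, n = 3), was at 2 h, and the mean at 24 h was 3.77 times that at 0 h. In each line every library at 2, 8 and 24 h lay above every 0 h library.

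**Figure D1:**
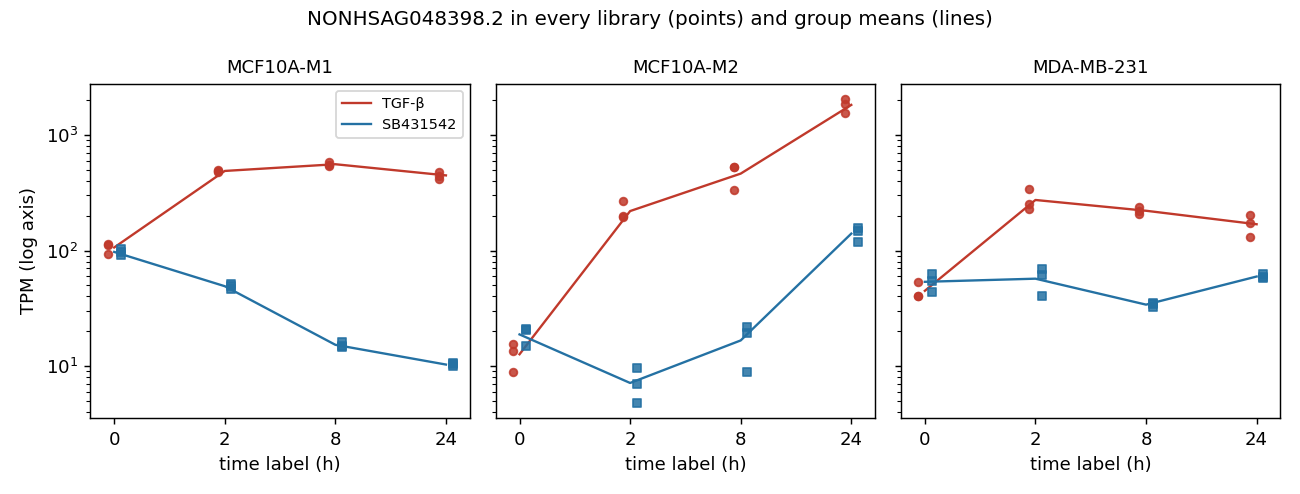
Level of NONHSAG048398.2 (TPM, log axis) against the time label (h) in each line, with 1 point per library and lines through the group means of 3. The TGF-β points (red circles) at 2, 8 and 24 h lie above all SB points (blue squares) of the same time and line, while the points at 0 h overlap.

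By rank within a library, the median place of the gene moved from 587 at 0 h to 109 at 24 h of TGF-β in M1, from 2896 to 23 in M2 and from 968 to 207 in MDA-MB-231, where 1 is the most abundant gene. At 24 h in M2 it made up 0.183% of the listed lncRNA signal. M2 weighed most in the choice of the gene: the log2 change over 24 h was 7.15 there, 2.07 in M1 and 1.89 in MDA-MB-231, with a mean of 3.70. The next gene by that measure, NONHSAG026213.2, had 4.07, 2.64 and 2.19 in the same order, with a mean of 2.97, and so larger changes in M1 and MDA-MB-231. These values chose the gene and carry no test.

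The step from 2 to 8 h of TGF-β uses the 0 h and 24 h libraries only for the filter and the spread estimate. In it no change of the gene passed the limma test in any line. The log2 change was 0.19 ± 0.09 (SE, adjusted p = 0.237) in M1, 1.06 ± 0.29 (adjusted p = 0.0727) for M2 and -0.29 ± 0.20 (adjusted p = 0.822) for MDA-MB-231, all by limma. Of all tested genes 6.06%, 1.27% and 0.193% were called in this step, in the same order. The libraries at 8 h did not overlap those at 2 h in M1 or in M2, and they did in MDA-MB-231. After median-of-ratios rescaling the M2 change was 1.14 with an adjusted p of 0.00299 by limma. No difference between lines in this step passed the limma interaction test as deposited, with 0.87 ± 0.31 for M2 minus M1 (SE, adjusted p = 0.22), -0.48 for MDA-MB-231 minus M1 (adjusted p = 0.33) and -1.35 ± 0.36 for MDA-MB-231 minus M2 (adjusted p = 0.12). After rescaling, M2 minus M1 was 1.03 (adjusted p = 0.0182) and MDA-MB-231 minus M2 was -1.38 (adjusted p = 0.00595) by limma, so these calls depend on the scaling. Of all genes tested 0.965%, 1.6% and 0.396% were called in these interaction tests, in the order given. In M2 the step was also called when only the compared groups were fitted (adjusted p = 0.0412) and with a filter at a mean of 1 TPM (adjusted p = 0.0484), by limma. Without the first M2 library at 8 h, which was the lowest, MDA-MB-231 minus M2 was -1.57, with an adjusted p of 0.0433 by limma.

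The SB libraries lay outside the log2 change that chose the gene. They entered that choice only through the filter and the spread estimate of each fit. Under SB the gene took a different course in each of the 3 lines. In M1 it fell steadily, from 90.8, 104 and 97.1 TPM in the earliest libraries to 49.4, 46.7 and 51.2 TPM at 2 h, 14.7, 14.9 and 16.1 TPM at 8 h, and 9.93, 10.6 and 10.3 TPM at 24 h. No library of one time overlapped those of another, and the mean at 24 h was 10.6% of the earliest. The log2 changes from the earliest libraries were -0.98 ± 0.09 at 2 h, -2.63 ± 0.09 at 8 h and -3.18 ± 0.09 at 24 h (SE), with adjusted p-values of 3.4e-06, 8.85e-15 and 1.58e-16 by limma. Genes called lower at these times were 0.0526%, 1.81% and 3.24% of those tested in M1. At 2 h the adjusted p was 0.0758 by limma when only the compared groups entered the fit.

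In M2 the gene went down and then up under the inhibitor. The libraries read 20.5, 15.0 and 20.8 TPM in the earliest group, 9.64, 6.94 and 4.77 TPM at 2 h, 8.78, 19.2 and 21.9 TPM at 8 h, and 156, 147 and 117 TPM at 24 h. The 2 h libraries all lay below the earliest and the 24 h libraries all lay above every other SB library of M2, while those at 8 h overlapped the earliest. The rise to 24 h was 2.87 ± 0.29 on the log2 scale (SE, adjusted p = 2.02e-07, limma), or 7.47 times the earliest mean, in a comparison where 2.01% of tested genes were called higher and 35.2% lower. After median-of-ratios rescaling it was 3.77. The fall at 2 h, -1.37 ± 0.29 (SE, adjusted p = 0.0291, limma), was less firm: 2.98% of tested genes were called lower there, with a median of -0.33 over all of them. It was -0.90 with an adjusted p of 0.147 by limma after rescaling. Leaving out the second or the third library of either group also ended this call, with adjusted p-values of 0.0654 to 0.175 by limma. At 8 h the change was -0.25 ± 0.29 (SE, adjusted p = 0.639, limma), where 2% of tested genes were called.

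In MDA-MB-231 the gene stayed between 32.6 and 69.4 TPM in every SB library. The earliest libraries read 43.7, 54.0 and 63.1 TPM, those at 2 h 69.4, 61.2 and 40.5 TPM, those at 8 h 35.0, 32.6 and 34.3 TPM and those at 24 h 57.5, 58.9 and 62.1 TPM. The 8 h libraries were the lowest and lay below every earliest library. No step passed the limma test: 0.07 ± 0.20 at 2 h (SE, adjusted p = 0.997), -0.63 ± 0.20 at 8 h (adjusted p = 0.169) and 0.17 ± 0.20 at 24 h (adjusted p = 0.767). Few genes were called at these times in the line, 0%, 0.242% and 1.9% of those tested.

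The difference between the lines in the 24 h SB change was itself tested with limma. The change was 6.05 ± 0.31 higher in M2 than in M1 (SE, adjusted p = 5.23e-17), 3.35 ± 0.22 higher in MDA-MB-231 than in M1 (adjusted p = 1.95e-13) and 2.71 ± 0.36 lower in MDA-MB-231 than in M2, a signed value of -2.71 (adjusted p = 1.74e-06). Of all genes tested, 19.3%, 2.7% and 17% were called in these 3 interaction tests. The calls held in each setting tried, including each library left out. In M2 the number of genes that reached 0.5 TPM had a mean of 13123 in the earliest SB group and 9310 at 24 h. It is not given for 2 or 8 h of SB. The all-gene median log2 change in M2 was already -0.33 at 2 h and -0.33 at 8 h of SB, and -0.63 at 24 h. The part of these shifts in the size of the M2 rise was not tested. The rise was larger after rescaling.

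**Figure D2:**
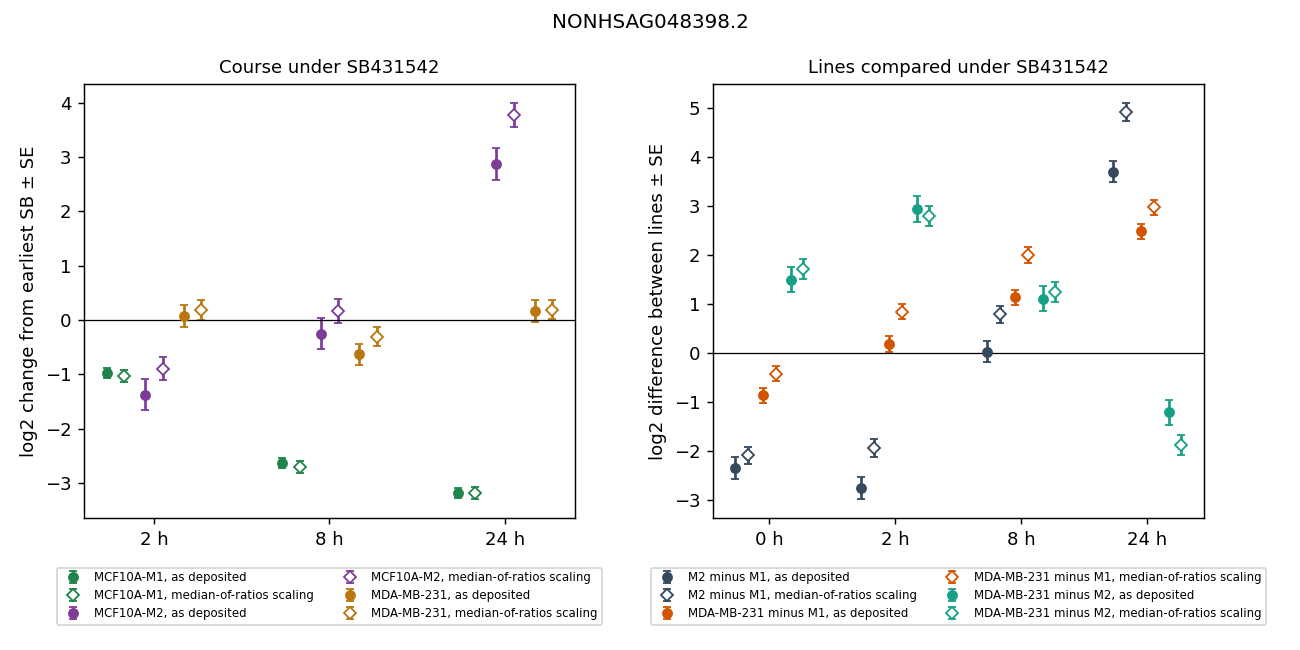
Left, log2 change ± SE of NONHSAG048398.2 from the earliest SB libraries at 2, 8 and 24 h in each line. Right, log2 difference ± SE between lines at each SB time; filled circles are values as deposited and open diamonds follow median-of-ratios rescaling. At 24 h the M1 change is -3.18 and the M2 change 2.87, and the order of M1 and M2 at the earliest time is turned round at 24 h.

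As a result the order of the lines under SB turned over. In the earliest SB libraries M1 was highest, M2 was -2.36 ± 0.22 from M1 (SE, adjusted p = 2.96e-10) and MDA-MB-231 was -0.87 ± 0.15 from M1 (adjusted p = 1.67e-05) by limma. At 24 h M2 was highest, 3.70 ± 0.22 above M1 (adjusted p = 2.64e-16), and MDA-MB-231 stood 2.48 above M1 (adjusted p = 1.54e-16) and -1.22 from M2 (adjusted p = 0.000192) by limma. Differences between lines were common. From the earliest to the 24 h SB libraries, 18.2%, 39%, 43.6% and 54.5% of tested genes were called between M2 and M1. Between MDA-MB-231 and M1 the shares were 41.1%, 46.8%, 53.9% and 46.5%, and between MDA-MB-231 and M2 they were 36%, 29.6%, 31.4% and 39.6%. In between, M2 minus M1 was -2.75 at 2 h (adjusted p = 3.14e-12) and 0.02 at 8 h (adjusted p = 0.95) by limma, and the latter became 0.78 (adjusted p = 0.000651) after rescaling. MDA-MB-231 minus M1 was 0.18 at 2 h (adjusted p = 0.354) and 1.13 at 8 h (adjusted p = 9.96e-08) by limma. The 2 h value was 0.83 (adjusted p = 2.76e-05) after rescaling and 0.41 (adjusted p = 0.0322) by limma without the third MDA-MB-231 library at 2 h. MDA-MB-231 lay above M2 by 1.49 in the earliest libraries, 2.93 at 2 h and 1.11 at 8 h, with adjusted p-values of 1.13e-05, 3.3e-12 and 0.000793 by limma.

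Set against SB at the same time, the gene was higher with TGF-β in all 9 pairs of groups at 2, 8 and 24 h, with no overlap between libraries, and at 0 h the 2 arms overlapped in each line. At 24 h the share of tested genes called between the agents was 14.6% for M1, 10.7% for M2 and 4.39% for MDA-MB-231, and nothing is read from this since the choice used the 24 h TGF-β libraries. In M1 the ratio of means was 9.97 at 2 h, 36.7 at 8 h and 43.6 at 24 h, while the TGF-β mean moved only between 448 and 560 TPM over these times. Over the same times the mean of the M1 SB libraries went from 49.1 to 10.3 TPM, so the ratio grew as the SB level fell. In M2 the ratio went the other way, from 30.9 at 2 h to 27.9 at 8 h and 13.0 at 24 h. Over these times the M2 mean rose in both arms, and by the larger factor with SB. It went from 7.12 to 16.6 and 140 TPM with SB, and from 220 to 464 and 1828 TPM with TGF-β. In MDA-MB-231 the ratios were 4.81, 6.51 and 2.84.

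Over the 24 groups the highest mean was 257 times the lowest, from 7.12 ± 2.44 TPM in M2 at 2 h of SB to the 1828 TPM of M2 at 24 h of TGF-β. The TGF-β groups of 2 h and later took the 9 highest places, and M2 at 24 h of SB, with 140 ± 20.2 TPM (SD, n = 3), came next, above the unstimulated M1 cells with a mean of 106 TPM. In that order, 15 of 23 neighbouring pairs had overlapping libraries, so most adjacent places are not separated by the spread. Pairs that were separated include M2 at 24 h of TGF-β over M1 at 8 h of TGF-β, M1 at 24 h of TGF-β over MDA-MB-231 at 2 h, and M2 at 24 h of SB over M1 at 0 h. Unstimulated M1 held 8.42 times the mean of unstimulated M2 and 2.37 times that of unstimulated MDA-MB-231.

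Of the 6 genes of close number, NONHSAG048393.3 is listed at 0 in all 72 libraries. NONHSAG048399.2 is listed above 0 in 2 of them, at 0.126 TPM in M2 at 24 h of TGF-β and 0.034 TPM in MDA-MB-231 at 8 h of SB. The other 4 passed the filter on low values and were tested in each line. Each stayed below the median of NONHSAG048398.2 over all libraries, 80.1 TPM, but not below its lowest groups: in M1 at 24 h of SB, NONHSAG048397.2 had a mean of 13.8 TPM against 10.3 TPM for NONHSAG048398.2. The highest single values were 24.2 TPM for NONHSAG048397.2, 22.3 TPM for NONHSAG048390.2, 8.74 TPM for NONHSAG048405.3 and 4.62 TPM for NONHSAG048404.2.

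**Figure D3:**
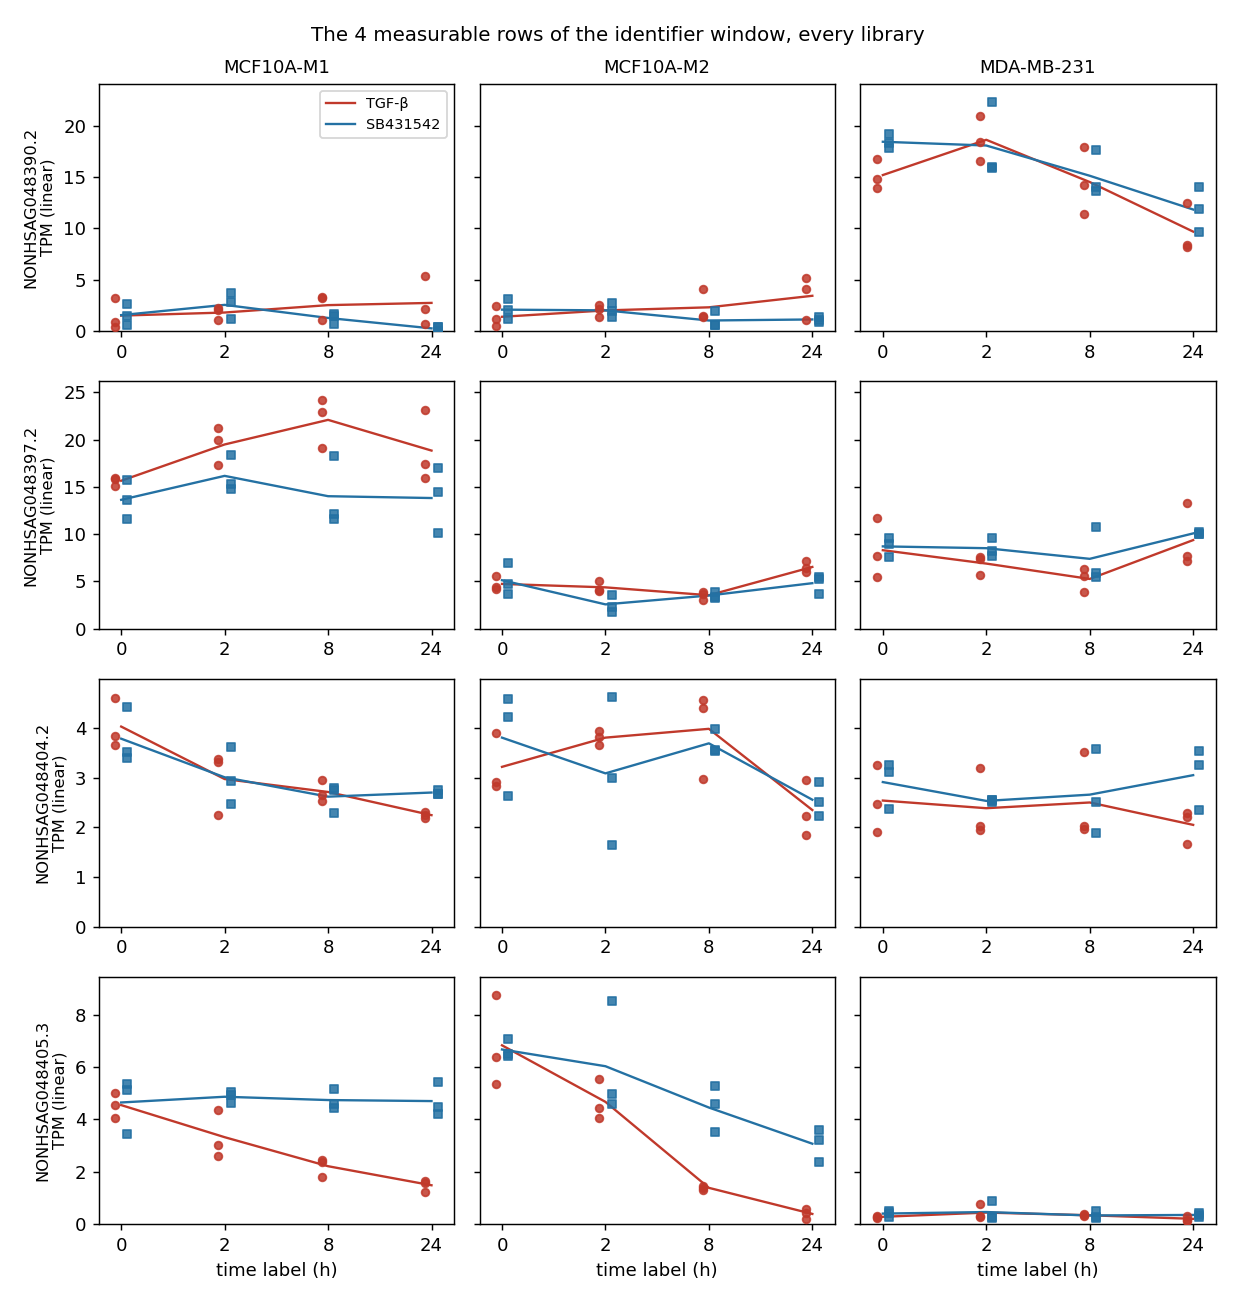
Levels (TPM, linear axis from 0, 1 scale per row of panels) of the 4 tested genes of close number in every library, by line and time label, with lines through the group means. NONHSAG048405.3 is lower with TGF-β (red) than with SB (blue) at 8 and 24 h in M1 and M2, and NONHSAG048390.2 is highest in MDA-MB-231.

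None of the 4 was called higher over 24 h of TGF-β in the values as deposited. By limma, 2 of 4 were called lower in M1 against 14% of all tested genes, 1 of 4 was called lower in M2 against 45.1%, and 0 of 4 were called in MDA-MB-231, where 5.58% of tested genes were called in either direction. There 1 of the 4 had an unadjusted p under 0.05, NONHSAG048390.2, with a log2 change of -0.65 ± 0.21 (SE, adjusted p = 0.0715, limma). After rescaling, M2 had 3 of 4 called higher by limma, against 18.9% of tested genes, and 1 called lower, against 19.7%. M1 then had 1 called in each direction, against 6.84% higher and 5.83% lower. In M2 the log2 change went from 0.99 to 1.88 for NONHSAG048390.2 and from 0.43 to 1.46 for NONHSAG048397.2, where only the call depends on the scaling, and from -0.39 to 0.56 for NONHSAG048404.2, where the direction does too, as it does in MDA-MB-231 (-0.24 to 0.035, called in neither). At 2 h of TGF-β 0 of 4 were called by limma in any line, and 1 of 4 in M1 and 0 of 4 in M2 and MDA-MB-231 had an unadjusted p under 0.05. Of all tested genes 0.842%, 0.702% and 0.58% were called at 2 h in M1, M2 and MDA-MB-231. These are shares of adjusted calls. The share of all genes with an unadjusted p under 0.05 is not given, so nothing is read from the unadjusted counts.

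NONHSAG048405.3 fell with TGF-β in the M1 and M2 lines while NONHSAG048398.2 was high. In M1 its libraries read 4.57, 5.00 and 4.07 TPM at 0 h, 2.60, 3.03 and 4.34 TPM at 2 h, 2.36, 1.82 and 2.46 TPM at 8 h, and 1.57, 1.66 and 1.24 TPM at 24 h. All libraries at 8 and 24 h lay below those at 0 h. The log2 change was -0.90 ± 0.20 at 8 h (SE, adjusted p = 0.00652) and -1.35 ± 0.20 at 24 h (adjusted p = 6.14e-05) by limma. At 8 h 3.82% of tested genes in M1 were called lower, and in M2 2.21%. Under SB in M1 it read 4.20, 4.47 and 5.43 TPM at 24 h and 5.37, 5.12 and 3.46 TPM in the earliest libraries, which overlapped (log2 change 0.03, adjusted p = 0.971, limma).

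In M2 the libraries of NONHSAG048405.3 read 6.39, 5.36 and 8.74 TPM at 0 h, 5.53, 4.06 and 4.42 TPM at 2 h, 1.32, 1.45 and 1.40 TPM at 8 h, and 0.575, 0.421 and 0.185 TPM at 24 h. The groups at 2, 8 and 24 h did not overlap each other, and by 24 h the gene was near the filter level of 0.5 TPM. The log2 change from 0 h was -1.93 ± 0.26 at 8 h (SE, adjusted p = 3.29e-05) and -3.03 ± 0.26 at 24 h (adjusted p = 2.68e-09) by limma, against an all-gene median of -0.74 at 24 h. After rescaling the 24 h change was -2.31. The step from 2 to 8 h, a test added after the data were seen, was -1.44 ± 0.26 (SE, adjusted p = 0.00386, limma). In that step 0.69% of tested genes were called lower. It was not called with a scaling total that omits the 10 genes of highest mean (adjusted p = 0.106).

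The fall was also seen against SB at the same time. The log2 difference between TGF-β and SB for NONHSAG048405.3 was -0.95 at 8 h (adjusted p = 0.00343) and -1.39 at 24 h (adjusted p = 3.92e-05) in M1 by limma, and -1.38 (adjusted p = 0.00156) and -2.01 (adjusted p = 5.65e-06) in M2. These 4 calls held in each setting tried. Genes called lower in these comparisons were 2.89% and 10.4% of those tested in M1 and 0.885% and 7.55% in M2. In M2 the gene also read lower at 24 h of SB, with 3.23, 3.62 and 2.37 TPM against 6.42, 7.08 and 6.51 TPM in the earliest libraries. That change of -1.02 ± 0.26 (SE, adjusted p = 0.00413, limma) was -0.20 (adjusted p = 0.559) after rescaling by limma, and the all-gene median over this course was -0.63 before rescaling. It was the 1 of 4 genes called over the SB course in M2, where 37.2% of tested genes were called. In M1 and MDA-MB-231 0 of 4 were called over that course, against 5.25% and 1.9% of tested genes. By limma 2 of 4 in M1 and 1 of 4 in MDA-MB-231 had an unadjusted p under 0.05 there, and the lowest adjusted p was 0.131. The shares above are of adjusted calls, an unlike threshold, so nothing is read from these unadjusted counts.

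In MDA-MB-231 NONHSAG048405.3 stayed between 0.126 and 0.875 TPM in all 24 libraries, about the filter level, and no change was called. Under SB it was lower there than in M1 or M2 at each time, by limma with log2 differences between -2.05 and -2.99, tests that were added after the data were seen. Of all tested genes, 30%, 37.6%, 44.7% and 34.6% were called lower than in M1, from the earliest SB libraries to 24 h. The shares called lower than in M2 were 19.6%, 11.8%, 15.9% and 8.19%. The change of NONHSAG048405.3 over 24 h of TGF-β differed between the lines by limma: it was -1.69 ± 0.31 for M2 minus M1 (SE, adjusted p = 0.00014), 1.19 ± 0.31 for MDA-MB-231 minus M1 (adjusted p = 0.0179) and 2.87 ± 0.35 for MDA-MB-231 minus M2 (adjusted p = 5.04e-08), where 13.6%, 4.38% and 19.9% of tested genes were called. For the difference between the agents at 24 h, MDA-MB-231 minus M1 was 1.10 (adjusted p = 0.0252) and MDA-MB-231 minus M2 was 1.72 (adjusted p = 0.000954) by limma, against 5.21% and 4.72% of tested genes called. Both differences of MDA-MB-231 from M1 were no longer called without the third MDA-MB-231 library at 24 h of TGF-β, with adjusted p-values of 0.0624 over 24 h of TGF-β and 0.085 between the agents by limma. With a pseudocount of 0.1 they were not called either (adjusted p = 0.18 and 0.288, limma). The MDA-MB-231 libraries at 0 h, at 0.246 to 0.323 TPM, already lay below the M1 libraries at 24 h of TGF-β.

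**Figure D4:**
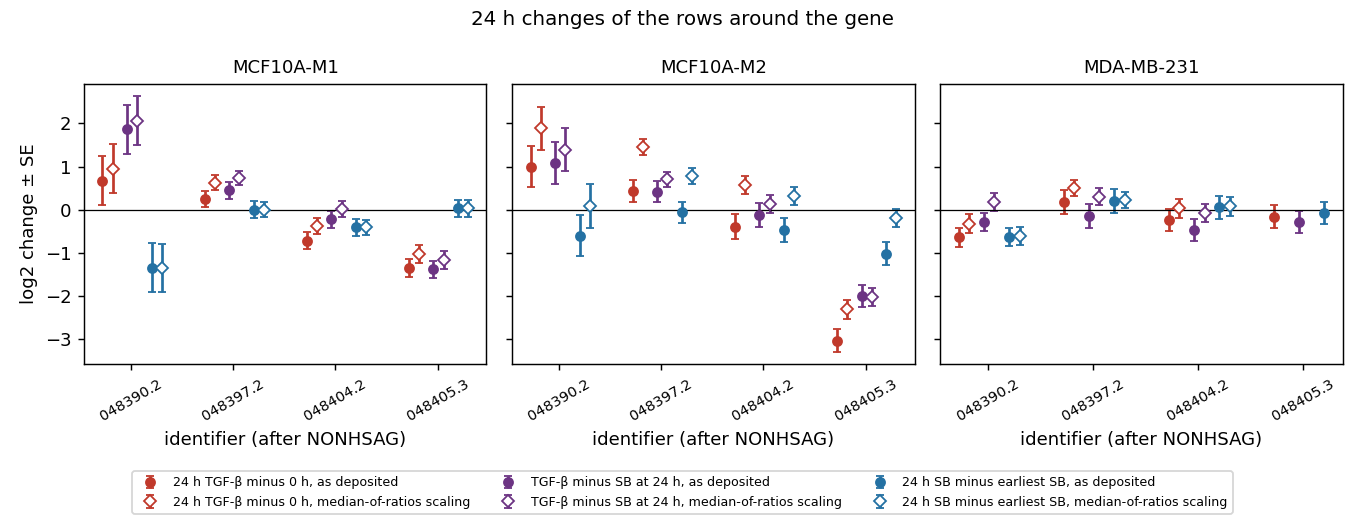
Log2 change ± SE (limma) of the 4 tested genes of close number over 24 h of TGF-β, between TGF-β and SB at 24 h, and over the SB course, in each line; filled circles are values as deposited and open diamonds follow median-of-ratios rescaling. NONHSAG048405.3 lies below 0 for both TGF-β comparisons in M1 and M2 under either scaling, and it has no rescaled value in MDA-MB-231 because it no longer passed the filter there.

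NONHSAG048397.2, whose line in the deposited table stands just before that of NONHSAG048398.2, differed by cell line more than by agent in the values as deposited. Its M1 libraries ranged from 10.1 to 24.2 TPM and its M2 libraries from 1.80 to 7.21 TPM, with no overlap. The MDA-MB-231 libraries, at 3.85 to 13.3 TPM, overlapped both. Under SB the M2 minus M1 differences were -1.36 to -2.47 and called at each time by limma, and the one at 24 h, -1.42, was -0.26 (adjusted p = 0.251) after rescaling. From the earliest to the 24 h SB libraries, 14.4%, 37.2%, 40.8% and 51.4% of tested genes were called lower in M2 than in M1. At 8 h in M1 NONHSAG048397.2 read 22.9, 24.2 and 19.2 TPM with TGF-β and 11.6, 18.3 and 12.2 TPM with SB, a log2 difference of 0.66 ± 0.19 (SE, adjusted p = 0.0343, limma). Without the first or the third SB library, or the first or second TGF-β library, the adjusted p was 0.101 to 0.162. It was the 1 of 4 genes called higher there, against 5.41% of all tested genes. Over 24 h of TGF-β in M2 its change was 0.43 ± 0.25 (SE, adjusted p = 0.152) as deposited and 1.46 (adjusted p = 1.36e-06) after rescaling, both by limma. In the same comparison NONHSAG048398.2 changed by 7.15.

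NONHSAG048390.2 was mainly a gene of MDA-MB-231, where it read 8.20 to 22.3 TPM, against 0 to 5.37 TPM in M1 and 0.505 to 5.20 TPM in M2. The log2 difference under SB was 2.69 to 4.06 from M1 and 2.91 to 3.45 from M2, called at each time by limma. From the earliest to the 24 h SB libraries, 11.1%, 9.2%, 9.2% and 11.8% of tested genes were called higher than in M1. Against M2 the shares were 16.4%, 17.8%, 15.4% and 31.5%. In M1 at 24 h NONHSAG048390.2 read 0.723, 2.13 and 5.37 TPM with TGF-β and 0.404, 0.373 and 0 TPM with SB. The groups did not overlap, but the TGF-β libraries spanned a wide range. This difference of 1.86 ± 0.56 (SE, adjusted p = 0.0286, limma) was no longer called without the second or the third library of either group, with adjusted p-values of 0.0513 to 0.149. It was the 1 of 4 genes called higher in this comparison as deposited, against 4.18% of all tested genes. After rescaling 2 of 4 were called higher by limma, against 7.68%.

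NONHSAG048404.2 was the steadiest of the 4 tested genes of close number, at 1.65 to 4.62 TPM in all 72 libraries. In M1 it read 3.83, 3.66 and 4.60 TPM at 0 h and 2.32, 2.24 and 2.18 TPM at 24 h of TGF-β. The groups did not overlap, and the log2 change was -0.72 ± 0.19 (SE, adjusted p = 0.0118, limma) against an all-gene median of -0.25. It was -0.38 (adjusted p = 0.199) after rescaling and not called without the third 0 h library (adjusted p = 0.0587), both by limma. In M2 the same change was -0.39 (adjusted p = 0.248) as deposited and 0.56 (adjusted p = 0.0369) after rescaling, by limma, so its direction there depended on the scaling.

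Across the 24 group means of log2(TPM + 0.5), the likeness of other genes to NONHSAG048398.2 was described by Pearson's r among the 13630 genes tested in all 3 lines. The groups of a line share cells and scaling, so r is a description only. For the genes of close number, r was 0.16 for NONHSAG048390.2, 0.26 for NONHSAG048397.2, -0.22 for NONHSAG048404.2 (0.23 after rescaling) and -0.42 for NONHSAG048405.3, beside a median of -0.11 over all 13630. With the mean of each line subtracted, r was 0.52 for NONHSAG048390.2 (place 488 of 13630), 0.47 for NONHSAG048397.2 (place 608), -0.23 for NONHSAG048404.2 and -0.80 for NONHSAG048405.3 (place 13599), beside a median of -0.26.

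The gene most like it was NONHSAG040143.2, with r of 0.88, and 0.93 with line means subtracted, the highest by both measures. Without the third library of each group the first place went to NONHSAG021742.2, with r of 0.89 against 0.87 for NONHSAG040143.2. In M1 NONHSAG040143.2 read 5.23, 5.50 and 6.49 TPM at 0 h, 37.0, 36.6 and 40.5 TPM at 8 h of TGF-β, and 0.276, 0 and 0.619 TPM at 24 h of SB. In M2 it read 6.36, 4.03 and 5.34 TPM at 0 h and 69.8, 76.7 and 84.6 TPM at 24 h of TGF-β. Under SB in M2 it read 5.15, 3.29 and 2.71 TPM at 2 h, 0.615, 3.24 and 3.37 TPM at 8 h and 11.99, 11.4 and 9.42 TPM at 24 h. Its lowest mean there was at 8 h, whereas that of NONHSAG048398.2 was at 2 h, and both had their highest at 24 h. In MDA-MB-231 it was flatter, between 4.19 and 14.2 TPM in all libraries. The second, NONHSAG021742.2, had r of 0.86 at much lower levels of 0.249 to 5.72 TPM, and ranked ninth with line means subtracted. The most unlike were NONHSAG109984.1, with r of -0.81, at no more than 2.1 TPM and at 0 in many libraries, and NONHSAG108981.1, with r of -0.80, at no more than 6.61 TPM. With line means subtracted they took places 13611 and 13624 of 13630, so other genes were more unlike by that measure. After median-of-ratios rescaling r was -0.63 for NONHSAG109984.1 and -0.83 for NONHSAG108981.1.

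**Figure D5:**
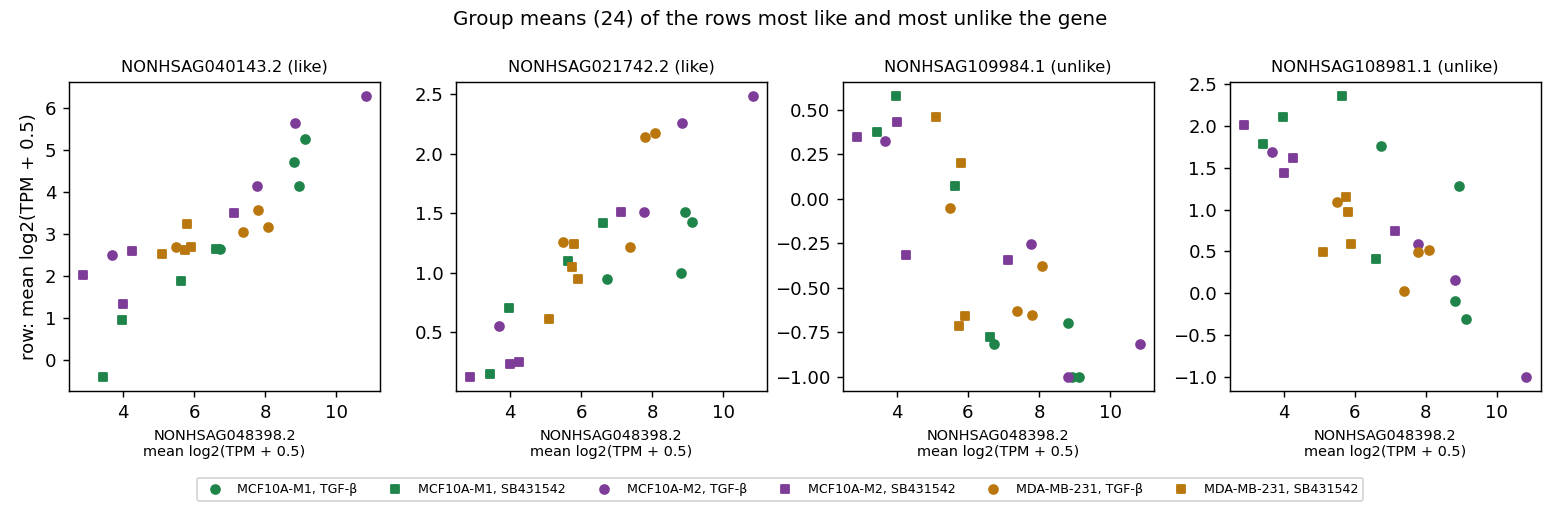
Mean log2(TPM + 0.5) of the 2 genes most like and the 2 most unlike NONHSAG048398.2, against that of NONHSAG048398.2, with 1 point for each of the 24 groups, coloured by line and shaped by agent. NONHSAG040143.2 climbs with it in M1 and M2 and is flatter in MDA-MB-231 (r of 0.88 over all groups). The 2 unlike genes lie at low levels where a mean of -1 stands for 0 TPM in all 3 libraries.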

How the data were processed

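RNA was isolated with TRIzol and sequenced on the Illumina platform, per the labels' protocols. Per the submitters' processing notes, the build was GRCh38, and the tools included StringTie 1.3.6, HISAT2 2.2.0, cutadapt 2.10 and FastQC. Parameters, strandedness and the annotation release were not given in the sources used. As deposited, lncRNA levels are TPM values in 72 columns, each matched by its label to 1 sample. TPM keep no depth, so counting error and detection limits are unknown. Strandedness being unstated, a gene and an overlapping or antisense partner cannot be told apart. The design text speaks of 36 samples and calls the triplicates biological. If replicates shared a culture, the p-values cover only the spread among these samples. No 2 columns were identical.

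A gene entered a fit if 3 or more of its libraries reached 0.5 TPM. Values were transformed as log2(TPM + 0.5) and tested two-sided with limma 3.58.1 under R 4.3.3, using lmFit, contrasts.fit and eBayes with trend, and Benjamini-Hochberg adjustment over every gene tested. Fits within a line held 24 libraries and tested 20899 (M1), 16958 (M2) and 16552 (MDA-MB-231) genes. Fits of 2 lines held 48. The script was tested on simulated data. The gene, the genes of close number and the tests were chosen with earlier results of these data known. The genes named are the gene, each listed gene of the identifier range, and the 2 most like and 2 most unlike by Pearson's r over group means. NONHSAG026213.2, the runner-up in the choice, was named after its values were seen. Other settings tried were pseudocounts of 0.1 and 1, no low-value filter, a filter at a mean of 1 TPM, median-of-ratios rescaling, rescaling to a total that omits the 10 genes of highest mean, a replicate block, fits of the compared groups alone, and each library omitted in turn. Tests between lines and from 2 to 8 h for the genes of close number were added after the data were seen. The RefSeq and GENCODE tables at hand held 0 entries with these identifiers.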

Additional observations from a re-analysis of the deposited data

Results flagged for a closer look

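The changes of several genes differed between lines by the limma interaction test, and no explanation is weighed here. For NONHSAG048398.2 the difference between lines in the SB change from the earliest libraries to 24 h was 6.05 for M2 minus M1, 3.35 for MDA-MB-231 minus M1 and -2.71 for MDA-MB-231 minus M2, on the log2 scale. M1 fell, M2 rose and no change passed the test in MDA-MB-231.

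For NONHSAG048405.3 the difference between lines in the change over 24 h of TGF-β was -1.69 for M2 minus M1, 1.19 for MDA-MB-231 minus M1 and 2.87 for MDA-MB-231 minus M2. In the difference between TGF-β and SB at 24 h it was 1.10 for MDA-MB-231 minus M1 and 1.72 for MDA-MB-231 minus M2. The levels of this gene in MDA-MB-231 were 0.126 to 0.875 TPM. Between the agents, MDA-MB-231 minus M1 was also not called without the third M1 library of either group or the first MDA-MB-231 SB library (adjusted p = 0.0655 to 0.0764, limma). In the SB change over 24 h, M2 minus M1 was -1.05, and -0.17 (adjusted p = 0.778, limma) after median-of-ratios rescaling. It was not called without the third earliest M1 library or the third 24 h M2 library (adjusted p = 0.0546 and 0.0534).

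For NONHSAG048390.2 the difference between TGF-β and SB at 24 h was lower in MDA-MB-231 than in M1, at -2.15 (adjusted p = 0.0302, limma), and -1.68 (adjusted p = 0.0746) after rescaling. Its change over 24 h of TGF-β was lower in MDA-MB-231 than in M2, at -1.64 (adjusted p = 0.0257, limma). Each call rested on single libraries: leaving out one of 7 libraries ended the first (adjusted p = 0.0511 to 0.155) and one of 5 ended the second (adjusted p = 0.0585 to 0.0994), by limma. The first was lost without the third M1 SB library, the second or the third M1 TGF-β library, the first or the third MDA-MB-231 SB library, or the first or second MDA-MB-231 TGF-β library. The second was lost without the second 0 h or the first or the third 24 h M2 library, or the third 0 h or the first 24 h MDA-MB-231 library.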

How the results depend on the processing

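For NONHSAG048398.2 the fall under SB at 8 and 24 h in M1, the rise at 24 h in M2 and the 3 differences between lines in the 24 h SB change kept their direction and call in each setting. Median-of-ratios rescaling moved others, to 1.03 for M2 minus M1 and -1.38 for MDA-MB-231 minus M2 in the 2 to 8 h TGF-β step, 1.14 for that step in M2, -0.90 at 2 h and 0.17 at 8 h of SB in M2, 0.78 for M2 minus M1 at 8 h and 0.83 for MDA-MB-231 minus M1 at 2 h of SB. With a scaling total that omits the 10 genes of highest mean the last was 0.61, and the SB changes in M2 were -1.05 at 2 h (not called) and 0.28 at 8 h. With the compared groups alone the 2 h SB changes of -0.98 in M1 and -1.37 in M2 were not called, and the 2 to 8 h step in M2, 1.06, was, as it was with a mean of at least 1 TPM. The causes were not tested.

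Rescaling reversed values of 3 genes of close number. NONHSAG048397.2 became 0.77 for the 24 h SB change in M2 and 0.85 for its difference from M1. NONHSAG048404.2 became 0.56 for 24 h of TGF-β in M2, 0.78 for M2 minus M1 in the 24 h SB change, 0.66 and 0.99 for M2 minus M1 at 2 and 24 h of SB, and 0.72 for MDA-MB-231 minus M1 at 8 h. NONHSAG048405.3 became 0.61 and 0.55 for M2 minus M1 at 8 and 24 h of SB. The number of these genes called over 24 h of TGF-β in M2 became 4 with rescaling and 2 with the trimmed total, where 38.7% and 20.9% of all tested genes were called. In M1 it became 1 with the trimmed total or the compared groups alone (9.96% and 14.3% of all genes), and in MDA-MB-231 1 with a mean of at least 1 TPM (11% of all genes). Between the agents at 24 h it became 2 in M2 with rescaling (19.3% of all genes) and 1 in M1 with the compared groups alone or no filter (14.2% and 7.12%). In M1 it became 3 with rescaling, 2 higher and 1 lower, where 13.4% of all tested genes were called. Over the SB course in M2 it became 0 with the trimmed total (5.99% of all genes).

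Leaving out each library in turn gave -1.61 to -1.13 for the 2 h and -0.49 to 0.14 for the 8 h SB change in M2, -0.089 to 0.30 for the 2 h SB change in MDA-MB-231, -0.22 to 0.42 for M2 minus M1 at 8 h and 0.021 to 0.41 for MDA-MB-231 minus M1 at 2 h. For MDA-MB-231 minus M2 in the 2 to 8 h step it gave -1.57 to -1.18. The counts over 24 h of TGF-β were 1 to 2 in M1 (1 without the third 0 h library), 1 to 2 in M2 (2 without the first 0 h or the second 24 h library) and 0 to 1 in MDA-MB-231 (1 without the third 24 h library). Between the agents they were 1 to 2 in M1 (1 without the second or the third library of either group) and 1 to 2 in M2 (2 without the second TGF-β library). With all libraries kept, 16.6%, 49.3% and 5.58% of all tested genes were called over 24 h of TGF-β in M1, M2 and MDA-MB-231. Between the agents the shares were 14.6% in M1 and 10.7% in M2.

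Same-numbered libraries were not treated as pairs, since all 3 correlations of their deviations were over 0.1 in only 1 of 33 comparisons. The correlations ranged from -0.14 to 0.14. A replicate block still moved the number of all genes called in some comparisons. For the 2 h SB change in M2 it went from 507 to 135, and between the agents at 24 h in MDA-MB-231 from 726 to 1065. With the replicate block no call of NONHSAG048398.2 changed, and 1 of NONHSAG048405.3 did, to 0.94 for MDA-MB-231 minus M2 in the 24 h SB change (adjusted p = 0.046, limma). Depth is unknown, so the error of values near 0.5 TPM could not be given.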
